A study of Homo sapiens with 15 samples.

Results

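The added effect of a higher dose of a PARP inhibitor is described here, as the difference between 3 arrays of cells given 100 nM AG014699 and 3 arrays of cells given 10 nM AG014699. These 6 arrays, found by the dose in the array titles, belong to 15 in all. MDA-MB-436 cells, from a human breast tumour and without functional BRCA1, were used, and all groups had been treated for 7 days. The other groups held 3 arrays each and received 100 nM AG014699 with LY294002, LY294002 alone, or the solvent DMSO. AG014699, also named rucaparib, inhibits PARP1, and LY294002 inhibits the kinase PI3K; the sources used here give no concentration for it. A single cell line stands behind every value. Whether the arrays of a group came from separate cultures is not stated in the labels. The p-values therefore reflect how these arrays vary, which may be technical variation.

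PARP1 binds breaks in DNA and builds chains of poly(ADP-ribose) from NAD, which recruit repair proteins. Inhibitors hold the enzyme on the DNA, and cells without BRCA1, which repair the resulting breaks poorly, are sensitive to them. Damaged cells are known to secrete cytokines, chemokines and matrix-degrading enzymes under control of the transcription factors NF-kB, C/EBP and AP-1.

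Signals were measured on Illumina HumanHT-12 bead arrays and are given as normalized log2 values. On the 6 arrays between 19606 and 20808 of 48105 probes were detected, and 12302 genes passed the filter on dim probes. Log2 signals correlated across genes at 0.983 to 0.985 among the 100 nM arrays, at 0.988 to 0.991 among the 10 nM arrays and at 0.974 to 0.980 between the doses. Array 1 of the 100 nM group was deposited in whole numbers, unlike the others. Of markers of this cell line VIM, CD44 and AXL were detected on all 15 arrays, ESR1 on 3 and SPARC on 2.

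At the higher dose 9 of 13 acute phase and antimicrobial genes and 9 of 22 collagen and matrix genes were lower than at the lower dose. Higher were the protease genes MMP1 and MMP3, 17 of 36 histone genes and 7 of 21 immediate early genes. Of 12302 genes 1179 differed at an adjusted p under 0.05 in limma, or 9.58% of those tested. At 100 nM 579 were higher (4.71%) and 600 were lower (4.88%). The 3 arrays of each dose did not overlap for 1164 of the 1179 (9.46% of those tested, beside 28.5% without overlap in all). The difference was at least 2-fold for 104 higher genes (0.845%) and 95 lower genes (0.772%), together 1.62% of the genes tested. This count depends on the background correction, since it was 56 for signals without correction and 49 in the authors' value table. Of the 30 genes at both ends of the ranking, 15 had a fold more than 1.5 times smaller without correction, though none lost its call or direction there. In bulk samples, fewer cells of a type and less RNA per cell cannot be told apart.

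S100A9, a subunit of the antimicrobial protein calprotectin, had log2 signals of 8.75, 9.04 and 8.89 on the 100 nM arrays, against 11.92, 12.18 and 12.20 on the 10 nM arrays. S100A8, which encodes the partner subunit, stood at 6.59, 6.39 and 6.31 at 100 nM and at 9.10, 9.70 and 9.79 at 10 nM. For both genes the lowest 10 nM array lay more than 2 log2 units above the highest 100 nM array. The 100 nM minus 10 nM differences were -3.21 (SE 0.16, limma adjusted p = 3.97e-08) and -3.10 (SE 0.20, adjusted p = 4.17e-07). CCL2, a chemokine that attracts monocytes, had log2 signals of 5.41, 4.73 and 5.48 at 100 nM, where 2 of 3 arrays detected it, against 8.03, 8.04 and 8.42 at 10 nM. It was the lowest of the chemokines at -2.96 (SE 0.19, adjusted p = 4.17e-07), or -1.59 without background correction. S100A8 differed by -2.24 without that correction.

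The acute phase and antimicrobial genes encode proteins that epithelia and liver release during infection. Of 13 measured members of the list 9 were lower at 100 nM and 1 was higher, with a median difference of -1.35, beside -0.02 over all genes tested. The serum amyloid gene SAA2 had log2 signals of 7.41, 7.40 and 7.74 at 100 nM and of 9.73, 10.16 and 10.11 at 10 nM. Its neighbours SAA1 and SAA4 were lower by -1.94 (SE 0.19) and -2.05 (SE 0.31); SAA1 and SAA2 are near-identical copies whose probes may not tell them apart. LCN2, an iron-sequestering lipocalin, had log2 signals of 9.95, 9.92 and 9.80 at 100 nM and of 11.94, 12.21 and 12.20 at 10 nM. The chitinase-like gene CHI3L1, the protease inhibitor gene SLPI and the pentraxin gene PTX3 fell as well, with differences of -1.35 (SE 0.31), -1.10 (SE 0.17) and -0.76 (SE 0.16). The beta defensin gene DEFB103A went against the list. Its log2 signals were 8.70, 8.64 and 8.63 at 100 nM and 6.14, 6.41 and 6.42 at 10 nM, with no overlap and a difference of 2.33 (SE 0.14, adjusted p = 3.07e-07). Its near-identical copy DEFB103B, which no 10 nM array detected, was at least 3.04-fold higher at 100 nM (adjusted p = 7.91e-07) on the background-corrected scale. This bound depends on the correction: without it the log2 differences were 0.94 for DEFB103B and 1.54 for DEFB103A.

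**Figure D1:**
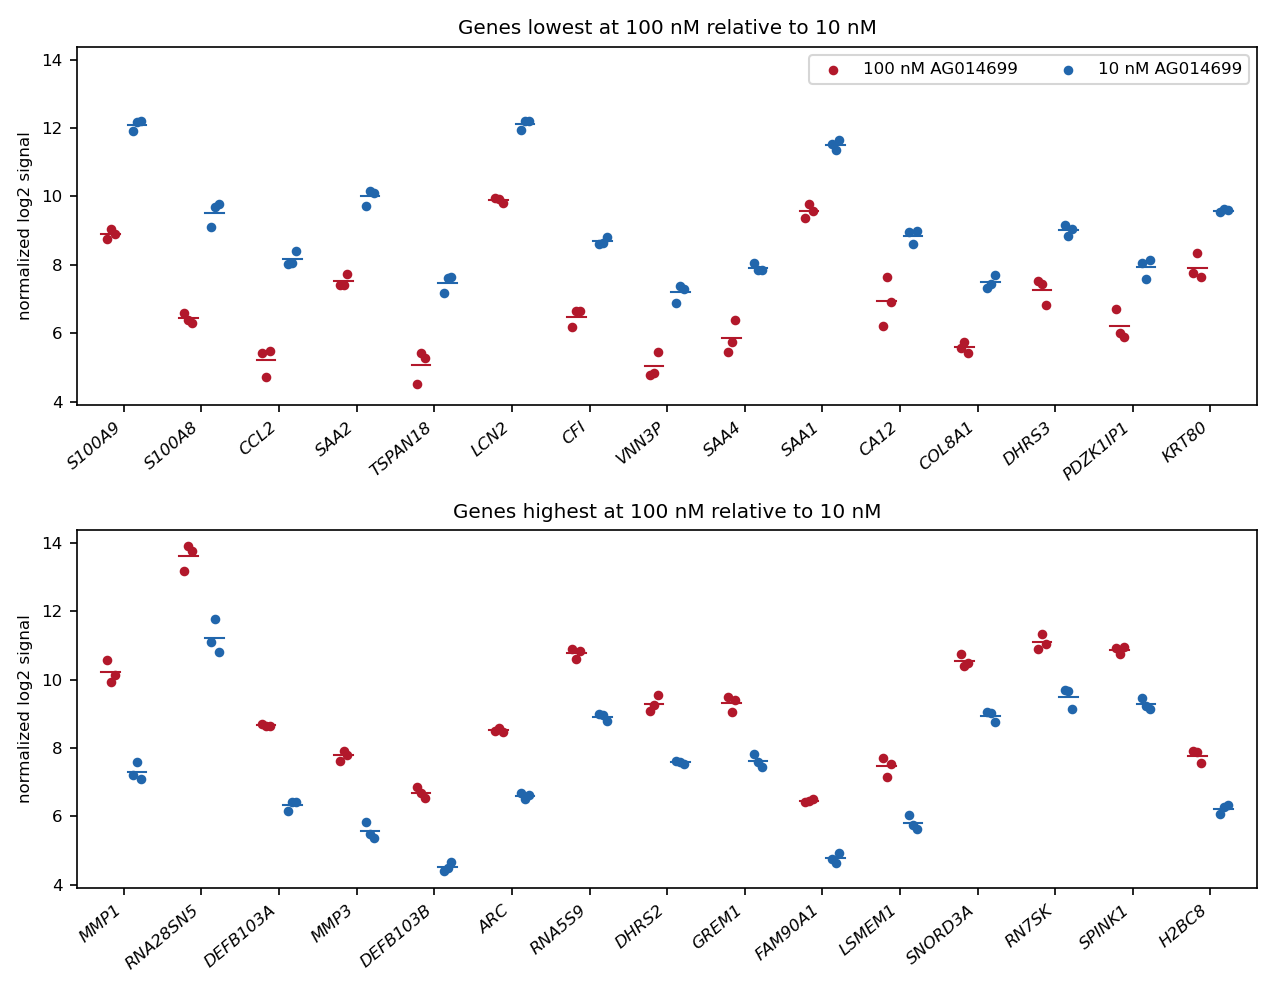
Normalized log2 signals on the y axis for the 15 genes with the most negative difference (top) and the 15 with the most positive difference (bottom), among called genes without overlap of arrays. Points are arrays, 3 at 100 nM (red, left) and 3 at 10 nM (blue, right), and bars are means; S100A9 lies near 8.9 at 100 nM and near 12.1 at 10 nM.

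Among 10 complement genes 5 fell and 0 rose, with a median difference of -0.73. CFI, which encodes a protease that inactivates complement on cell surfaces, had log2 signals of 6.17, 6.64 and 6.64 at 100 nM and of 8.61, 8.65 and 8.80 at 10 nM, a difference of -2.20 (SE 0.20, adjusted p = 1.33e-05). CFB, a component of the alternative pathway, differed by -1.13 (SE 0.18, adjusted p = 0.00139). Among other genes at the low end of the ranking, the tetraspanin gene TSPAN18 differed by -2.41 (SE 0.27), the retinal reductase gene DHRS3 by -1.75 (SE 0.19) and the membrane protein gene PDZK1IP1 by -1.72 (SE 0.24). Without background correction the differences were -1.17 for TSPAN18, -1.02 for PDZK1IP1, -1.49 for CFI and -1.15 for SAA4. CA12, a carbonic anhydrase of the cell surface, was spread widely at 100 nM, with log2 signals of 6.22, 7.65 and 6.92, against 8.95, 8.62 and 8.99 at 10 nM. Its difference was -1.92 (SE 0.26, adjusted p = 0.000349).

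Of 6 genes measured on the list of matrix metalloproteinases and their inhibitors, 2 rose, 1 fell and 3 were not called, with a median difference of 0.29. MMP1, the interstitial collagenase, had log2 signals of 10.57, 9.93 and 10.13 at 100 nM and of 7.22, 7.60 and 7.09 at 10 nM. MMP3, the stromelysin that activates other proteases, stood at 7.63, 7.92 and 7.79 at 100 nM and at 5.84, 5.47 and 5.38 at 10 nM. No 10 nM array reached a 100 nM array for either gene, and the differences were 2.91 (SE 0.29, limma adjusted p = 2.41e-05) and 2.22 (SE 0.25, adjusted p = 8.84e-05). Without background correction the MMP3 difference was 1.18. TIMP2, an inhibitor of these enzymes, differed by -0.82 (SE 0.13, adjusted p = 0.000944). Of 22 collagen and matrix genes 9 fell and 1 rose, with a median difference of -0.56. The collagen gene COL8A1 had log2 signals of 5.57, 5.74 and 5.43 at 100 nM and of 7.33, 7.43 and 7.71 at 10 nM, and its difference was -1.91 (SE 0.16), or -0.98 without background correction. Differences were -1.56 (SE 0.15) for TGFBI, an adhesion protein of the matrix, -1.17 (SE 0.17) for COL5A1 and -1.05 (SE 0.16) for COL18A1. The laminin subunit gene LAMB3 rose by 0.76 (SE 0.15, adjusted p = 0.00451). Of 13 integrin subunits 1 was called, or 7.69%, near the 9.58% of all genes.

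GREM1, an antagonist of bone morphogenetic proteins, had log2 signals of 9.49, 9.06 and 9.40 at 100 nM and of 7.82, 7.59 and 7.45 at 10 nM, a difference of 1.70 (SE 0.22, adjusted p = 0.000244). The trypsin inhibitor gene SPINK1 stood at 10.92, 10.74 and 10.94 at 100 nM and at 9.47, 9.22 and 9.15 at 10 nM. The reductase gene DHRS2 had log2 signals of 9.08, 9.24 and 9.54 at 100 nM and of 7.63, 7.57 and 7.52 at 10 nM, and LSMEM1 differed by 1.66 (SE 0.15). FAM90A1, undetected at 10 nM, was at least 2.59-fold higher at 100 nM (adjusted p = 9.61e-06) on the background-corrected scale. This bound too depends on the correction, and without it the log2 differences were 0.66 for FAM90A1 and 0.88 for LSMEM1. Of 10 genes of the ID and SMAD feedback list, which respond to bone morphogenetic proteins and TGF-beta, 3 rose and 1 fell. ID1 and ID2, which encode inhibitors of helix-loop-helix transcription factors, went opposite ways. The ID1 log2 signals were 7.12, 6.66 and 6.55 at 100 nM and 8.37, 8.15 and 8.45 at 10 nM, a difference of -1.55 (SE 0.19, adjusted p = 0.000176). The ID2 log2 signals were 9.60, 9.48 and 9.68 at 100 nM and 8.04, 8.23 and 7.92 at 10 nM, a difference of 1.52 (SE 0.17, adjusted p = 8.11e-05).

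Immediate early genes, which are transcribed within minutes of a growth or stress signal, included 7 that rose and 0 that fell among 21, with a median difference of 0.30. ARC had log2 signals of 8.51, 8.58 and 8.46 at 100 nM and of 6.68, 6.51 and 6.61 at 10 nM, a difference of 1.92 (SE 0.23, adjusted p = 0.000141), or 1.29 without background correction; its product acts at synapses and is no transcription factor. The AP-1 subunit genes FOSB and FOS differed by 1.32 (SE 0.17) and 1.23 (SE 0.24), and the stress factor gene ATF3 by 1.27 (SE 0.13). The FOS call ended when the 5 arrays numbered 1 were left out (adjusted p = 0.0532). Of 25 p53 target genes 4 rose and 0 fell. Among these the cell cycle inhibitor gene CDKN1A differed by 0.91 (SE 0.18, adjusted p = 0.00538) and SERTAD1 by 1.02 (SE 0.19). Of 28 ATF4 targets, which respond to amino acid shortage and unfolded proteins, 3 rose, 2 fell and 23 were not called, with a median difference of -0.04. The amino acid transporter subunit gene SLC3A2 differed by 0.98 (SE 0.13), the transcription factor gene DDIT3 by 0.78 (SE 0.14) and the serine synthesis gene PSAT1 by -0.61 (SE 0.11). Of 17 FOXO targets 2 rose, among them GADD45B at 1.27 (SE 0.13), and 0 fell. That is 11.8% called, near the 9.58% of all genes.

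Of 36 histone genes 17 rose and 1 fell, with a median difference of 0.57. H2BC8 had log2 signals of 7.91, 7.87 and 7.55 at 100 nM and of 6.06, 6.26 and 6.32 at 10 nM, and H2AC18 had 11.90, 12.07 and 12.06 at 100 nM and 10.62, 10.43 and 10.65 at 10 nM. The differences were 1.56 (SE 0.15, adjusted p = 1.90e-05) and 1.44 (SE 0.11, adjusted p = 3.19e-06), and the histone that fell was H2BC9 at -0.98 (SE 0.17). Without background correction the H2BC8 difference was 0.92. Histone genes resemble each other closely, and their probes may share signal. Most histone mRNAs carry no poly(A) tail, and other RNAs without one moved with them: 15 of 39 rose and 0 fell, with a median difference of 0.43. RN7SK, a regulator of transcription elongation, had log2 signals of 10.90, 11.34 and 11.04 at 100 nM and of 9.69, 9.65 and 9.14 at 10 nM. The ribosomal RNA gene RNA28SN5 differed by 2.39 (SE 0.34), RNA5S9, which the list does not hold, by 1.86 (SE 0.17), and the small nucleolar RNA gene SNORD3A by 1.61 (SE 0.16). RN7SL1, the RNA of the signal recognition particle, differed by 0.05 (SE 0.13, adjusted p = 0.851). The part of labelling or RNA quality in the rise of histones and of these RNAs was not tested.

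**Figure D2:**
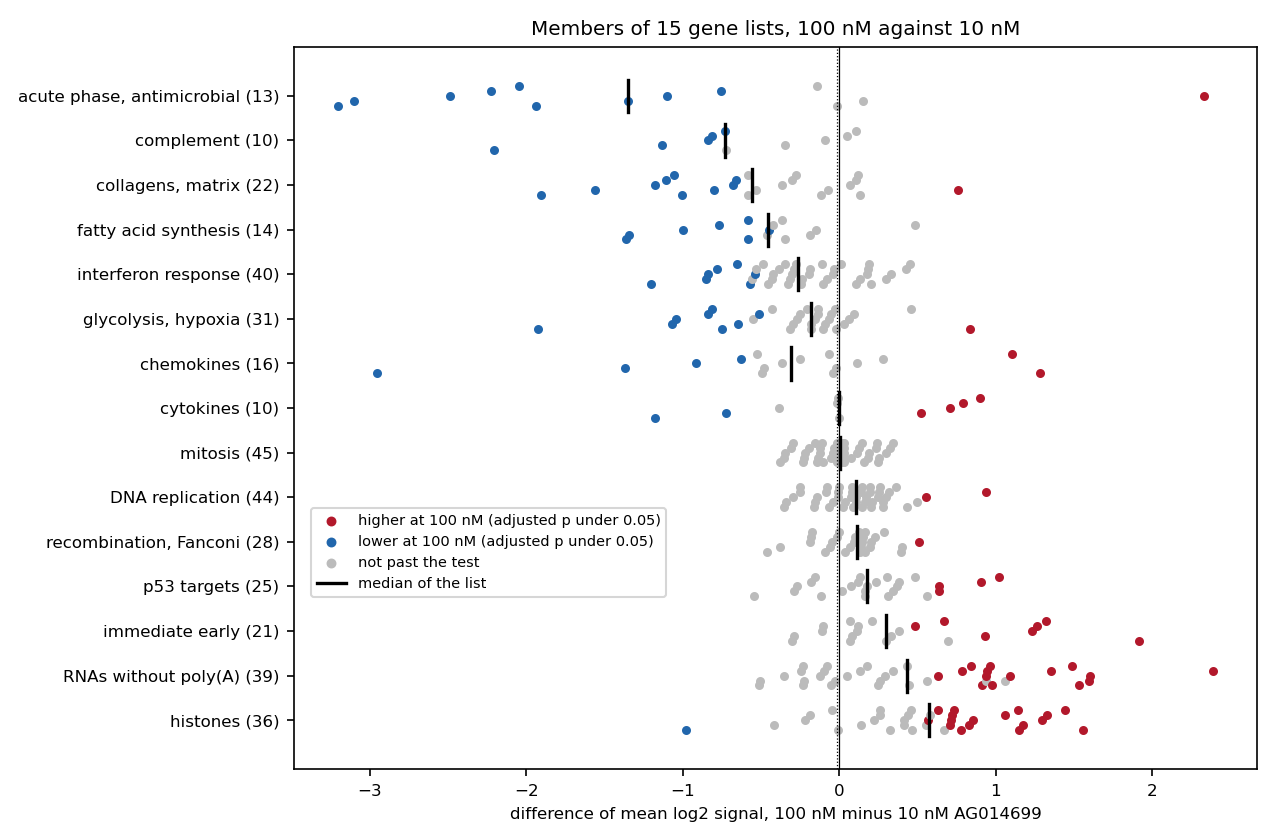
The x axis gives the difference of mean log2 signal, 100 nM minus 10 nM AG014699, for each measured member of 15 gene lists (number of measured members in parentheses). Points are genes, red where higher and blue where lower at an adjusted p under 0.05 and grey otherwise, and black ticks are list medians, from -1.35 for acute phase genes to 0.57 for histones; the dotted line is the median of all genes tested, -0.02.

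Of 14 fatty acid synthesis genes 7 fell and 0 rose, with a median difference of -0.46. SCD, the desaturase that makes monounsaturated fatty acids, had log2 signals of 11.37, 11.44 and 11.45 at 100 nM and of 12.66, 12.61 and 13.08 at 10 nM, a difference of -1.36 (SE 0.13, adjusted p = 2.41e-05). SREBF1, a transcription factor that activates the pathway, differed by -1.34 (SE 0.22). The desaturase gene FADS1 had 10.79, 10.69 and 10.69 at 100 nM and 11.66, 11.82 and 11.69 at 10 nM. FASN, the synthase itself, varied among arrays of each dose, with log2 signals of 9.64, 10.35 and 10.18 at 100 nM and of 10.42, 11.11 and 10.95 at 10 nM. The highest 100 nM array lay just below the lowest 10 nM array. Its difference of -0.77 (SE 0.20, adjusted p = 0.0226) lost the call without array 1 at 100 nM (adjusted p = 0.0883) and without array 2 or 3 at 10 nM (0.105 and 0.0848). Of 22 sterol synthesis and uptake genes 4 fell and 0 rose, 18 were not called, and the median difference was -0.12. Among the 4 were INSIG1, a sensor of sterol supply, at -0.83 (SE 0.12), and DHCR7 at -0.73 (SE 0.14). Genes of lipid droplets, in which cells store fatty acids, included 3 that rose among 11, such as the coat protein gene PLIN2 at 0.74 (SE 0.11) and the lipase activator gene ABHD5 at 0.77 (SE 0.16).

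The interferon response list, 40 genes measured, held 7 lower and 0 higher genes, with a median difference of -0.26. The guanylate-binding protein gene GBP1 differed by -0.84 (SE 0.17) and BST2, which tethers virus particles, by -0.78 (SE 0.15). Of 31 glycolysis and hypoxia genes 8 fell and 1 rose, the fallen ones led by CA12 and the glycolysis regulator gene PFKFB4 at -1.04 (SE 0.19). Of 16 NRF2 targets 4 fell and 1 rose, among them the drug transporter gene ABCC3 at -1.19 (SE 0.14) and the steroid-metabolizing gene AKR1C3 at -1.07 (SE 0.20). Of 13 epithelial genes 3 fell: KRT80 at -1.67 (SE 0.18), the tight junction gene CLDN1 at -1.56 (SE 0.18) and the transcription factor gene ELF3 at -1.30 (SE 0.13). Of 12 mesenchymal genes 2 fell, among them the calcium-binding protein gene S100A4 at -1.17 (SE 0.17).

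Markers of other cell types gave CD14, a co-receptor for bacterial lipopolysaccharide, at -1.36 (SE 0.14, adjusted p = 3.87e-05). It was the 1 called gene of 5 leukocyte and endothelial markers measured of 19 listed. The summed linear signal of those 5 was 3794 to 4668 at 100 nM and 3249 to 4112 at 10 nM, and CD68, also a macrophage marker, differed by 0.42 (SE 0.14, adjusted p = 0.0764). PTPRC and CD3E had no probe named for them in the annotation used, which covered 17526 of 48105 probes, and could not be assessed. Of 6 luminal markers measured 2 fell, with a summed linear signal of 3105 to 3905 at 100 nM and 4512 to 4944 at 10 nM. The sums mainly follow CD68 and the luminal marker XBP1, with mean log2 signals of 11.37 and 11.57 over all 15 arrays. Each other marker measured was at 8.42 or less. All arrays came from a single cell line, and the part of other cells in the lower genes was not tested.

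Lists of cell division and of DNA repair held few or no calls between the doses. Of 45 mitosis genes 0 passed in limma, against 9.58% of all genes, and their differences ran from -0.38 to 0.35, with 3 at an unadjusted p under 0.05. DNA replication genes rose in 2 of 44 cases (4.55%), recombination and Fanconi genes in 1 of 28 (3.57%), and base excision and end joining genes in 1 of 23 (4.35%). These shares lie near the 4.71% of all genes that rose, and 0 were lower in each list. At an unadjusted p under 0.05 in limma the 3 lists held 8, 3 and 7 genes in the same order, beside 3015 of all 12302 genes. The base excision and end joining gene that rose was TDP1, which clears trapped enzymes from DNA ends, at 0.93 (SE 0.19, adjusted p = 0.00645); with the mean of its 2 probes the adjusted p was 0.391. PARP1, the target of AG014699, had log2 signals of 11.56, 12.17 and 12.19 at 100 nM and of 12.18, 12.27 and 12.13 at 10 nM. The doses overlapped, and the difference was -0.22 with a 95% interval of -0.55 to 0.10 (adjusted p = 0.408). For BRCA1 it was 0.10 with an interval of -0.34 to 0.55 (adjusted p = 0.812).

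**Figure D3:**
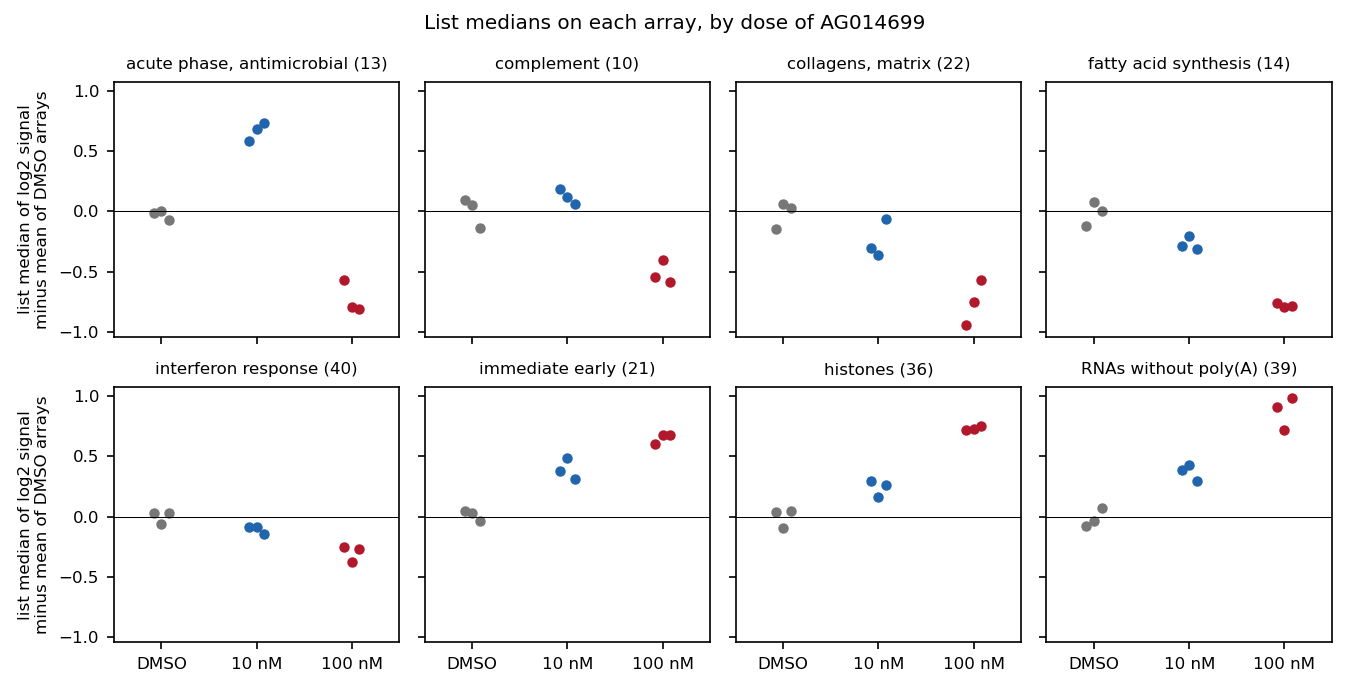
The median over members of log2 signal minus the mean of the 3 DMSO arrays (y axis) is plotted for 8 gene lists on every array of DMSO, 10 nM and 100 nM AG014699 (x axis). Each point is an array; acute phase genes lie at 0.59 to 0.73 at 10 nM and at -0.81 to -0.57 at 100 nM, while histones lie at 0.16 to 0.30 at 10 nM and at 0.72 to 0.75 at 100 nM.

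The lists took different paths along dose when each array was set against the mean of the DMSO arrays. The median of the acute phase list was 0.59, 0.69 and 0.73 on the 10 nM arrays and -0.57, -0.79 and -0.81 on the 100 nM arrays, so that it stood above DMSO at the lower dose and below it at the higher dose. Complement genes lay at 0.06 to 0.18 at 10 nM and at -0.59 to -0.40 at 100 nM, beside -0.14 to 0.09 in DMSO. The median of the fatty acid list lay at -0.31 to -0.21 at 10 nM and at -0.80 to -0.76 at 100 nM, beside -0.12 to 0.08 in DMSO. Of its 14 genes 0 were called at 10 nM against DMSO. The medians of immediate early genes, histones and RNAs without a poly(A) tail stepped up at both doses. At 10 nM against DMSO 5 of 21, 5 of 36 and 6 of 39 of these were called higher, and 0 lower. Both steps use the same 10 nM arrays.

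A gene was said to turn back when it was called at 10 nM against DMSO in one direction and at 100 nM against 10 nM in the other. This held for 34 of 12302 genes, or 0.276%, beside 2.37% called at 10 nM against DMSO; 30 were higher at 10 nM and then lower at 100 nM, and 4 the reverse. Because both differences rest on the same 10 nM arrays, the count is a description. Of the 30 genes 15 were not called at 100 nM against DMSO, 11 stayed above DMSO, and 4 passed below it. The 10 nM arrays lay outside all DMSO and all 100 nM arrays for 33 of the 34, the exception being PTGS2. Over all genes tested such a peak at 10 nM was seen for 255 (2.07%) and a trough for 148 (1.20%). The 34 genes were chosen by calls on these same arrays, so the position of their arrays is no separate support.

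Among the 11 genes that stayed above DMSO, IL6, a cytokine that drives the acute phase response, had log2 signals of 8.92, 8.76 and 8.81 in DMSO, of 10.98, 11.39 and 11.26 at 10 nM and of 10.09, 9.94 and 10.06 at 100 nM. Its difference was -1.18 between the doses (SE 0.14, adjusted p = 0.000141) and 1.20 at 100 nM against DMSO (adjusted p = 3.14e-05). TNFAIP6, a hyaluronan-binding protein, followed with 7.76, 7.75 and 7.17 in DMSO, 10.11, 10.38 and 10.28 at 10 nM and 8.93, 9.17 and 9.17 at 100 nM. CSF3, the granulocyte colony-stimulating factor, and CCL20, a chemokine for lymphocytes, kept most of their rise and differed between the doses by -0.72 (SE 0.16) and -0.63 (SE 0.12). The CSF3 call ended without array 2 at 100 nM (adjusted p = 0.0536) or array 2 at 10 nM (0.0551). AQP9, a channel for water and glycerol, was undetected in DMSO. On the background-corrected scale it lay at least 3.49-fold above DMSO at 10 nM and differed by -1.29 (SE 0.16) between the doses. PTGS2, the prostaglandin-forming cyclooxygenase 2, varied most, with log2 signals of 6.15, 6.40 and 6.28 in DMSO, 8.62, 9.18 and 9.68 at 10 nM and 7.36, 7.80 and 8.76 at 100 nM. Its difference of -1.19 (SE 0.32, adjusted p = 0.0322) was lost without array 1 or 2 at 100 nM (adjusted p = 0.129 and 0.0990) and without array 2 or 3 at 10 nM (0.0877 and 0.137).

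Other genes came back to where no call against DMSO was left. VNN1, which encodes a pantetheinase, was undetected in DMSO, had log2 signals of 6.33, 6.54 and 6.83 at 10 nM and had 5.31, 4.85 and 5.34 at 100 nM. Its relative VNN3P, a pseudogene, had 5.09, 5.56 and 5.46 in DMSO, 6.89, 7.39 and 7.30 at 10 nM and 4.78, 4.84 and 5.46 at 100 nM. Their differences between the doses were -1.40 (SE 0.18) for VNN1 and -2.17 (SE 0.20) for VNN3P, or -0.57 and -0.98 without background correction. OLR1, a receptor for oxidized lipoprotein, had log2 signals of 9.39, 9.53 and 9.39 in DMSO, of 10.89, 11.32 and 11.11 at 10 nM and of 9.75, 9.80 and 9.94 at 100 nM. ZC3H12A, a ribonuclease that degrades inflammatory mRNAs, IL6 among them, had 8.28, 8.25 and 8.04 in DMSO, 9.51, 9.54 and 9.61 at 10 nM and 8.52, 8.65 and 8.34 at 100 nM. HSD11B1, which regenerates cortisol, was detected at 10 nM alone among these doses. On the background-corrected scale it was at least 1.27-fold above DMSO there, and it was at least 1.28-fold lower at 100 nM than at 10 nM. The retinoic acid synthesis gene ALDH1A3 differed by -0.91 (SE 0.21, adjusted p = 0.0124) and the ubiquitin ligase gene RNF144B by -1.28 (SE 0.25, adjusted p = 0.00527) between the doses. Of 21 other choices of processing ALDH1A3 turned back under 17 and RNF144B under 14; ALDH1A3 did not without array 1 or 3 at 10 nM or array 1 or 2 of DMSO, nor RNF144B without array 2 or 3 at 10 nM or array 1 or 3 of DMSO. The NAD synthesis gene NAMPT was also in this class, at -0.53 (SE 0.14, adjusted p = 0.0272). Its call ended without array 2 or 3 at 100 nM (0.0625 and 0.0776) or array 1 or 3 at 10 nM (0.0891 and 0.0907).

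The 4 genes that passed below DMSO were SAA1, SAA2, QPRT and TMEM154. SAA1 had log2 signals of 10.73, 10.81 and 10.42 in DMSO, of 11.52, 11.37 and 11.66 at 10 nM and of 9.38, 9.78 and 9.58 at 100 nM. QPRT, an enzyme of NAD synthesis, differed by -1.47 (SE 0.20) and TMEM154 by -1.33 (SE 0.15) between the doses. Neither QPRT nor TMEM154 turned back when any single array of 10 nM or of DMSO was left out, and both did so under 13 of 21 other choices. The reverse course was taken by ZCCHC14, C19orf33, USP37 and NCOA5. NCOA5, a coactivator of nuclear receptors, had 7.46, 7.61 and 7.54 in DMSO, 6.95, 7.10 and 6.89 at 10 nM and 7.68, 7.70 and 7.59 at 100 nM. USP37, which removes ubiquitin from proteins, had 7.52, 7.73 and 7.42 in DMSO, 7.01, 6.92 and 6.95 at 10 nM and 7.66, 7.54 and 7.42 at 100 nM; its call between the doses ended without array 2 at 10 nM (adjusted p = 0.0534). None of these 4 was called at 100 nM against DMSO.

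**Figure D4:**
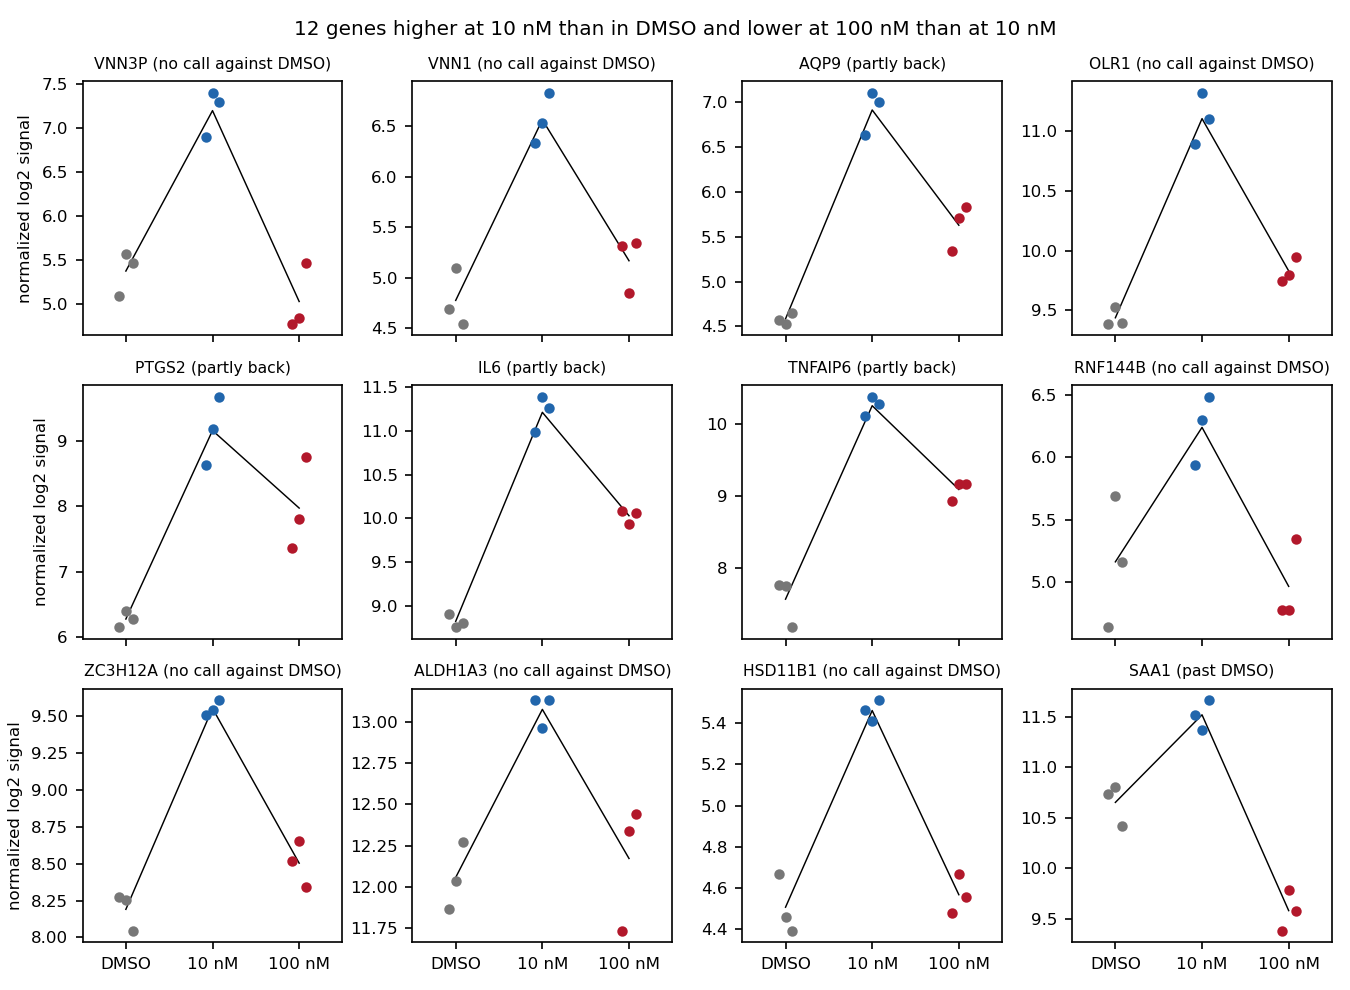
Normalized log2 signals (y axis, a range of its own in each panel) of 12 genes that turned back, on the arrays of DMSO, 10 nM and 100 nM AG014699 (x axis). Points are arrays, 3 per group, lines join the means, and the words in parentheses give the position at 100 nM against DMSO; IL6 peaks near 11.2 at 10 nM and SAA1 falls below its DMSO arrays at 100 nM.

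Under 21 other choices of processing, some of which share nearly the same values, 6 genes turned back each time: CCL20, IL6, NFKBIZ, OLR1, TNFAIP6 and ZC3H12A. SAA1, SAA2 and ZCCHC14 did so under 15 choices, C19orf33 and USP37 under 14, and NCOA5 under 9. NFKBIZ, an atypical inhibitor protein of NF-kB that is needed for expression of IL6 and LCN2, differed by -0.68 (SE 0.11, adjusted p = 0.00169) between the doses. Of 16 genes of NF-kB subunits and feedback 2 rose and 2 fell, with a median difference of 0.19. The inhibitor gene NFKBIB rose by 1.13 (SE 0.18, adjusted p = 0.000997).

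Promoters are shown for 5 of the 6 genes that always turned back and for 2 of the defence genes that fell. The courses of these sets differed: S100A9 and LCN2 had no call at 10 nM against DMSO and were lower at 100 nM than in DMSO. Each promoter is the 250 bases before the first start that RefSeq lists (GRCh38.p14, plus strand). They lie at chr7:22726950-22727199 for IL6, chr2:151357342-151357591 for TNFAIP6, chr2:227813592-227813841 for CCL20, chr3:101827740-101827989 for NFKBIZ, chr1:37474330-37474579 for ZC3H12A, chr1:153357604-153357853 for S100A9 and chr9:128149203-128149452 for LCN2. Capitals mark matches on either strand to an NF-kB motif (GGGA and TTCC with any 2 bases between), an AP-1 motif (TGANTCA), a C/EBP motif (TTGCNNAA) or a TATA box (TATAAA), and no marked matches overlap.
IL6: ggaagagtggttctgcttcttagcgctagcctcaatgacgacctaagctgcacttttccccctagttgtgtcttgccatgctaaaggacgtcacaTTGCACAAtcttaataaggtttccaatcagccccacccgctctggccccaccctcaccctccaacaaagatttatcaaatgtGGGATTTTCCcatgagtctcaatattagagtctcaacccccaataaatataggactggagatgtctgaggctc
TNFAIP6: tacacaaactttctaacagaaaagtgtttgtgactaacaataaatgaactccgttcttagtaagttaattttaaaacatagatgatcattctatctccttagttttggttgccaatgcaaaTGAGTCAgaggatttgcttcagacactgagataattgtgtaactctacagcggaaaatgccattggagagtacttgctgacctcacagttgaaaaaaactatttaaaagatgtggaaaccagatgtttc
CCL20: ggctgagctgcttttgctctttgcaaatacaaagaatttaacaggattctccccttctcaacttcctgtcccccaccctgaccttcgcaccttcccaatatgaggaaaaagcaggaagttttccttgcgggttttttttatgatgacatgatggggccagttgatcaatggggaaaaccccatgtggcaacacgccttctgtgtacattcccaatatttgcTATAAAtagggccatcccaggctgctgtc
NFKBIZ: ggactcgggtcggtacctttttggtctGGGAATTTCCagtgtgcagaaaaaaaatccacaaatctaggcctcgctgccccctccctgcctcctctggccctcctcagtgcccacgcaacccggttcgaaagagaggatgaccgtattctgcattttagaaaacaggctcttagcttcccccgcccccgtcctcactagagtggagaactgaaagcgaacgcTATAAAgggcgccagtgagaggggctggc
ZC3H12A: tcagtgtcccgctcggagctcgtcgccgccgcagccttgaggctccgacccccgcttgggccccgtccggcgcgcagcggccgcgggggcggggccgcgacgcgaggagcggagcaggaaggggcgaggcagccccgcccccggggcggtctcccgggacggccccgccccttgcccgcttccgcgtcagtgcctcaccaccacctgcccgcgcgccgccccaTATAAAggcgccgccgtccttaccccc
S100A9: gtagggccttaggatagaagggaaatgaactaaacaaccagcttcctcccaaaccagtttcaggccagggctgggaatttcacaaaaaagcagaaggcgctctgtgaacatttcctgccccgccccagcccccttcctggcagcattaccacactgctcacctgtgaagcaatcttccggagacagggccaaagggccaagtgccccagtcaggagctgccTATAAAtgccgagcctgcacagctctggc
LCN2: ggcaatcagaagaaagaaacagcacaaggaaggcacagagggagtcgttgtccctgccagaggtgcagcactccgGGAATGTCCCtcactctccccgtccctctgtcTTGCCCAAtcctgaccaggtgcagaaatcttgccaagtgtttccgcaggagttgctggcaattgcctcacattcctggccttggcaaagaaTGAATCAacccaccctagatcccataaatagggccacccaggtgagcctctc
The NF-kB motif stood in IL6, NFKBIZ and LCN2, the C/EBP motif in IL6 and LCN2, the AP-1 motif in TNFAIP6 and LCN2, and the TATA box in CCL20, NFKBIZ, ZC3H12A and S100A9. Over 27305 promoters in the table, 1.42% held the NF-kB motif, 6.6% the AP-1 motif, 9.13% the C/EBP motif and 11.1% the TATA box. Of the 34 genes that turned back 22 had a promoter there, of which 2 held the NF-kB motif, 1 the AP-1 motif, 4 the C/EBP motif and 7 the TATA box. Among 485 promoters of the genes lower at 100 nM the shares were 2.06%, 4.33%, 7.01% and 6.8% in the same order, and among 446 promoters of the higher genes 1.12%, 6.05%, 6.95% and 9.64%. Over 9812 promoters of all genes tested they were 1.43%, 4.03%, 6.09% and 5.8%. A match is a description of letters, not a binding site.

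Cytokine and chemokine genes were not moved as a block by the added dose. Of 10 cytokine genes 4 rose and 2 fell, and of 16 chemokine genes 2 rose and 4 fell. IL1B, the interleukin 1 beta gene, had log2 signals of 10.54, 10.47 and 10.49 in DMSO, of 13.13, 13.13 and 13.23 at 10 nM and of 13.07, 13.28 and 13.15 at 100 nM. The difference between the doses was 0.00 with a 95% interval of -0.26 to 0.26. CXCL8, the main attractant of neutrophils, differed by 0.12 between the doses with an interval of -0.17 to 0.40. CCL3L3, a macrophage chemokine gene with a near-identical copy, had log2 signals of 10.41, 10.31 and 10.21 at 100 nM and of 9.02, 9.13 and 8.94 at 10 nM, a difference of 1.28 (SE 0.13, adjusted p = 3.54e-05). CXCL16, a chemokine of the cell surface, stood at 5.77, 5.70 and 6.27 at 100 nM and at 7.24, 7.31 and 7.29 at 10 nM. IL24 rose by 0.90 (SE 0.18, adjusted p = 0.00663), a call that ended when the 5 arrays numbered 1 were left out (adjusted p = 0.0963).

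The arrays of 100 nM AG014699 with LY294002 and of LY294002 alone entered neither mean of the dose comparison. They did enter its standard errors, since the fit over all arrays gave a gene the same residual variance in both comparisons. The calls of both are therefore not independent. In the presence of LY294002, 100 nM AG014699 is set against no AG014699, not against 10 nM. The like comparison without LY294002 is 100 nM against DMSO, where 2648 genes (21.5%) were called. The overlap with that comparison was not tested. Between the combination and LY294002 alone, 2249 of 12302 genes (18.3%) were called. Of these 1159 (9.42%) were higher and 1090 (8.86%) lower with AG014699. Of the 579 genes higher at 100 nM than at 10 nM 388 were higher in the combination (67.0%) and 3 were lower. Of the 600 genes lower at 100 nM 335 were lower in the combination (55.8%) and 16 were higher. Over all genes both differences correlated at r = 0.596 and rho = 0.529; genes are not independent replicates, and the arrays were normalized together.

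MMP1 had log2 signals of 9.90, 9.85 and 10.22 in the combination and of 4.69, 5.76 and 6.04 in LY294002, where 2 of 3 arrays detected it, a difference of 4.49 (SE 0.29, adjusted p = 9.80e-08). S100A9 stood at 8.14, 8.01 and 8.24 in the combination and at 10.16, 9.74 and 9.61 in LY294002. CCL2, which no array of the combination detected, had 7.28, 7.00 and 6.83 in LY294002. These genes kept in the presence of LY294002 the direction they had between the doses. INSIG1 differed by 0.18 between the combination and LY294002 (adjusted p = 0.334) and PFKFB4 by 0.14 (adjusted p = 0.671), beside -0.83 and -1.04 between the doses.

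Of the 30 genes that were higher at 10 nM and turned back, 13 were higher and 2 lower in the combination than in LY294002, and 15 were not called. CCL20 was higher by 2.79 (SE 0.12), IL6 by 0.75 (SE 0.14) and OLR1 by 1.28 (SE 0.14). CSF3 was detected on all arrays of the combination and on no array of LY294002. No array of either group detected VNN1, VNN3P or AQP9. SAA1 and SAA2 were the 2 lower genes, at -1.73 (SE 0.19) and -1.78 (SE 0.18). LY294002 with 10 nM AG014699 is not among the groups.

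**Figure D5:**
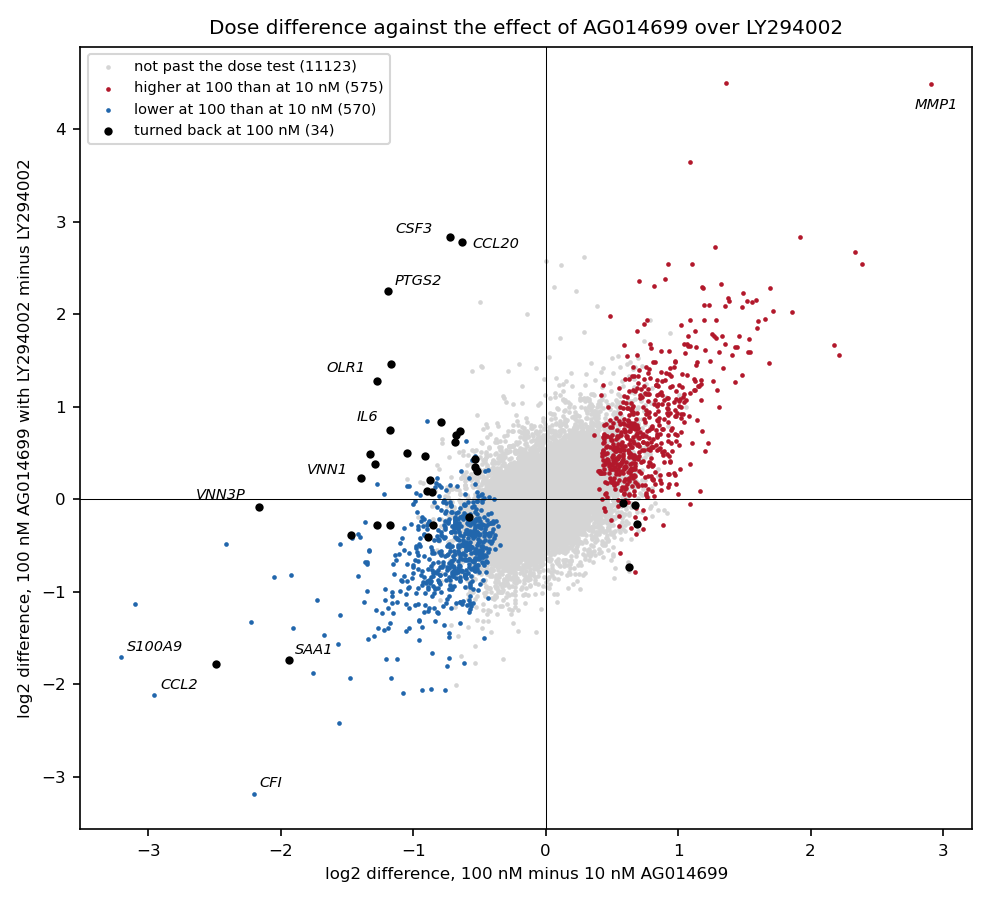
Each point is 1 of 12302 genes, placed by the log2 difference 100 nM minus 10 nM AG014699 (x axis) and the log2 difference 100 nM AG014699 with LY294002 minus LY294002 (y axis), from separate arrays. Red and blue mark genes called between the doses and black the 34 genes that turned back; MMP1 lies at 2.91 and 4.49, and CCL20 at -0.63 and 2.79.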

How the data were processed

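RNA of MDA-MB-436 cells was measured on 15 arrays, and titles gave the treatment and dose of each. Per the file headers, the deposited table holds an intensity for 48107 probes with the matching detection p-value, and the array medians of the intensity lie between 114 and 114.7. The upper quartiles lie between 193.9 and 195.4, so the signals were already on a like scale between arrays before the steps below. The setting of signals as deposited is therefore not a check without normalization. Centred log2 values from a second table deposited by the authors served as an alternative. S100A9 (-2.99) and ARC (1.30) had the same difference between the doses there as in the signals as deposited. The authors' value table is therefore no separate check on those signals. After 2 probes with 8 missing signals were dropped, limma 3.58.1 in R 4.3.3 corrected the background, inferred from detection p-values (offset 16), and made quantile-normalized log2 values. A probe was kept when 3 of 15 arrays detected it at p under 0.05. This left 23680 probes, of which 16577 carried 1 symbol. For 3365 genes with several probes the brightest was taken. Of 364 genes called between the doses that had several kept probes, 91 had more than 1 probe called in that direction when probes were tested singly. For 1 of the 364 a probe was called in the opposite direction.

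Group means were fitted over all arrays (lmFit, eBayes; 10 residual and 4.80 prior degrees of freedom), and Benjamini-Hochberg adjustment ran over 12302 genes. SE is the standard error of this fit. Where no array of a group detected a gene, a lower bound replaces the fold. The number of arrays limits the precision.

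Named genes are the 15 highest and 15 lowest called without overlap, 12 that turned back by the largest smaller step, up to 5 called members of a list, members that went against their list, members not called where a sentence needed them, PARP1 and BRCA1. Chosen after their values were seen were CHI3L1, SLPI, PTX3, CCL20, NAMPT, QPRT, TMEM154, ZCCHC14, C19orf33, USP37 and NCOA5. The members and the 41 lists were chosen with earlier results of these data known. Array numbers were not taken to pair the samples, since the labels do not say so. Deviations of 100 nM and 10 nM arrays of the same number correlated at 0.16, 0.058 and 0.19. Those of arrays of different number correlated at -0.21 to 0.06, so a batch shared by number may be present. Background correction, normalization, filter, probe choice, variance model and arrays were varied. The procedure was tested on simulated data.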

Additional observations from a re-analysis of the deposited data

Results flagged for a closer look

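Probes without a single gene name are not used in the report. Of 7103 such probes 92 (1.30%) were called between 100 nM and 10 nM AG014699 in limma when tested by themselves, 74 higher and 18 lower at 100 nM, with log2 differences from -2.13 to 3.24. They drew attention because they hold a signal outside the genes described, and they have no names here.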

How the results depend on the processing

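Single genes were followed for 160 genes, of which 158 were called. They were both ends of the ranking, genes that turned back, up to 5 called members per list, PARP1 and BRCA1. Other named genes, such as IL1B, CXCL8 and RN7SL1, were not followed. No alternative reversed a called gene among the 160. Of 2847 pairs of such a gene and an alternative 2574 were unchanged, and 273 kept the direction and lost the call. Unchanged means the same direction and call, or for PARP1 and BRCA1 that no call appeared. The count of genes called between the doses was 1179. Leaving out 1 array gave 665 (without 10 nM array 2) to 1051 (without 100 nM array 3), and 681 without 10 nM array 3. It was 662 with the 5 arrays numbered 1 left out and 563 with the model fitted to both dose groups alone. The 2-fold count of 199 became 56 without background correction and with the signals as deposited, and 49 in the authors' value table, and 102 with normexp at offset 50. The settings without background correction, the authors' value table among them, hold nearly the same values and are not separate checks. The turn-back count of 34 became 59 with quantile normalization and no background correction, 60 with signals as deposited, 53 with normexp at offset 50, 56 with array weights, 17 with arrays numbered 1 left out and 22 with a fit to the 3 dose groups alone. Leaving out 1 array gave 14 (without 10 nM array 2) to 34, with 19 without 10 nM array 3 and 21 without DMSO array 1. The combination against LY294002 gave 2249 genes, 1279 with arrays numbered 1 left out, and 1553 to 2008 without 1 array. With array numbers as a replicate block the counts were 1472 between the doses, 46 for turn-back and 2603 for the combination. The labels do not say whether the numbers pair the samples. Slide as a block was not run, since the headers name no slide. The cause of these shifts was not tested. Array number and background signal limit dim genes: 58 called genes were undetected on all arrays of 1 dose.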
